A study of Mus musculus with 20 samples.

Results

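The comparison was between 5 Fh1-/- kidney libraries taken 10 days after the start of induction and 5 Fh1-/- kidney libraries taken on day 5, which are 10 of the 20 RNA-seq libraries of the series. The members were defined by the labels of genotype and day, and the comparison was chosen with earlier results of these data known. Fh1-/- mice were homozygous for an Fh1 allele whose exons 3 and 4 are flanked by loxP sites, and the Fh1+/+ littermates, 5 libraries at each day, had the normal allele. Both genotypes carried the tamoxifen-activated recombinase CreERT2 at Rosa26, a promoter active in nearly every cell type, so that recombination was not limited to the kidney or to tubular cells. All mice, of both sexes, aged 12 weeks and of mixed C57BL/6 129/SvJ background, received 3 intraperitoneal doses of 2 mg tamoxifen, 1 every other day. If day 0 was the day of the first dose, the last dose came 1 day before the day 5 collection and 6 days before the day 10 collection, so time after Fh1 loss and time after tamoxifen cannot be told apart within Fh1-/-. The Fh1+/+ libraries received the same doses on the same days. The labels do not name the animals, and p-values then measure the spread between these libraries.

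Fh1 encodes fumarate hydratase, the enzyme that turns fumarate into malate in the tricarboxylic acid (TCA) cycle and in the cytosol. When it is lost, fumarate accumulates, inhibits dioxygenases that use 2-oxoglutarate and reacts with cysteines of proteins such as KEAP1, the restraint on the antioxidant factor NRF2. In the kidney, loss of the enzyme is known for tubular damage, cyst formation and, in people with inherited FH mutations, renal cancer. The question here was how gene expression moved between the 2 collections while the genotype stayed the same.

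Values are CPM, the reads of a gene relative to the total of its library, which was scaled by a TMM factor, the trimmed-mean correction of edgeR. Library totals ran from 17019658 to 25001294 counts over the 10 libraries. In Fh1-/- the whole-gene count of Fh1 was higher on day 10, not lower. It measured 351, 248, 365, 413 and 359.5 CPM in day 10 replicates 1 to 5 and 222, 216, 242, 232 and 199 CPM in day 5 replicates 1 to 5, so every day 10 library lay above every day 5 library. The means were 347 ± 60.6 and 222 ± 16.6 CPM (SD, n = 5), with a log2 fold change of 0.64 ± 0.14 (SE) and an edgeR adjusted p = 0.0221. The Fh1+/+ libraries measured 247, 231, 233, 222 and 259 CPM on day 10 and 262, 236, 215, 266 and 263 CPM on day 5. A count over the whole gene does not test the excision of exons 3 and 4. The call was lost with one of day 5 replicates 1, 3 and 4 left out (highest adjusted p 0.0632).

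Day 10 replicates 1 and 3 stood apart from the other 8 Fh1-/- libraries. On the first principal component, which held 58.8% of the variance, they scored 102 and 105, and the other 8 libraries scored -43.5 to 5.06. Their counts differed from each other by a chi-square per degree of freedom of 7.85, the lowest of the 20 pairs within the Fh1-/- groups (highest 397), and they were kept as separate libraries. Day 10 replicate 2 was the library nearest to day 5 in most gene groups that rose. The Y-linked transcripts Ddx3y, Uty, Kdm5d and Eif2s3y summed to at most 1.03 CPM in day 10 replicates 1, 3 and 5 and in day 5 replicates 2 and 5, and to at least 117 CPM in the other 5 libraries. Day 10 thus held 3 libraries low in Y-linked RNA and day 5 held 2. Of the 3 Y-low day 10 libraries, 2 are replicates 1 and 3, so values within the Y-low libraries cannot be told apart from these replicates. Markers of the labelled tissue were abundant, among them Umod, the main secreted protein of the thick ascending limb, at 6946 to 15550 CPM on day 10 and 4576 to 8342 CPM on day 5.

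Between day 5 and day 10, genes higher in Fh1-/- kidneys included acute phase, tubular injury, immediate early and stress response genes, and genes that were lower included proximal tubule transporters, respiratory chain subunits and cell cycle genes. Of 14235 genes tested by edgeR's quasi-likelihood test, 928 were higher on day 10 (6.52%) and 725 were lower (5.09%) at an adjusted p under 0.05. The counts of called genes in the lists below are to be read against these shares. The median log2 fold change of the called genes was 0.93 for those higher and -0.80 for those lower, and 433 and 271 of them changed over 2-fold. At the study's threshold, an adjusted p under 0.01 and an absolute log2 fold change over 0.58, 48 genes were higher (0.337%) and 34 lower (0.239%). Without day 10 replicates 1 and 3, 578 of 14623 genes were higher (3.95%) and 483 lower (3.3%), of which 424 and 301 were among the calls of the full comparison. In that smaller comparison 926 of the 928 higher genes and all 725 lower genes kept their direction. The 5 day 10 and the 5 day 5 libraries did not overlap for 885 of the 14235 genes higher on day 10 (6.22%) and 860 lower (6.04%), among them 646 of the 928 and 548 of the 725 called genes. In the Y-low libraries alone and in the Y-high libraries alone, 926 of the 928 and 725 of the 725 also moved the same way. This split and the smaller comparison both reuse libraries that selected these genes. Agreement in direction was thus largely fixed by the selection and is no independent support. In Fh1+/+, 0 of 14501 genes were called between the days by edgeR (0%), against 575 at an unadjusted p under 0.05, and DESeq2 called 0 higher and 1 lower. Of 83 called genes followed with each library left out in turn, 34 kept their call whichever single library was left out, and the other 49 reached an adjusted p of at most 0.112.

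**Figure D1:**
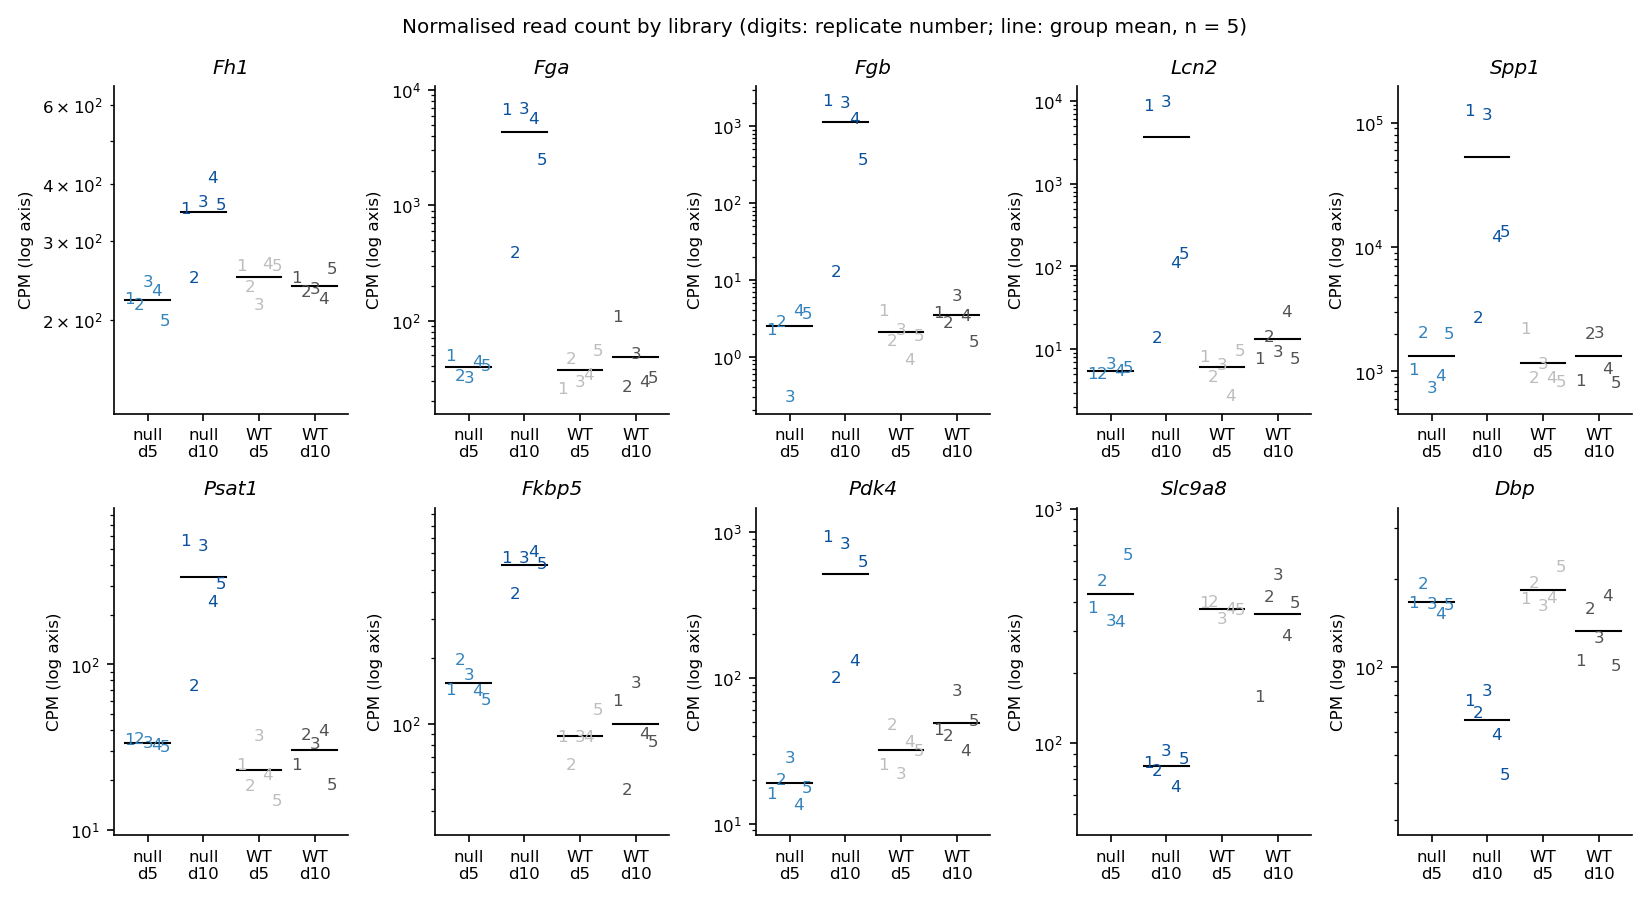
Normalised read count (CPM, log axis) of 10 genes in the 4 groups of 5 libraries, with each library drawn as its replicate number and the group mean as a line. Fga ran from 382 to 6792 CPM in Fh1-/- day 10 and from 31.7 to 48.5 CPM in Fh1-/- day 5, while Slc9a8 lay between 64.8 and 92.2 CPM on day 10 and at 327 CPM or more on day 5.

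The acute phase genes encode plasma proteins that the liver releases during inflammation, and their induction runs largely through interleukin-6 family cytokines and the factor STAT3. Of 21 listed genes, 17 were tested, 11 rose and 0 fell, with a median log2 fold change of 4.82 against 0.01 over all genes tested. Without day 10 replicates 1 and 3, 9 rose and the median was 3.09. The 3 fibrinogen chains, which assemble into the clotting protein, had the lowest p-values of the list. Fga, the alpha chain, measured 6675, 382, 6792, 5552 and 2469 CPM in day 10 replicates 1 to 5 and 48.5, 33, 31.7, 43.1 and 39.8 CPM in day 5 replicates 1 to 5. Every day 10 library was above every day 5 library, and replicate 2 was the lowest of the day 10 libraries. The log2 fold change of Fga was 6.80 ± 0.73 (SE, edgeR adjusted p = 0.00407), and it was 6.16 without replicates 1 and 3 (adjusted p = 0.00765). Fgb, the beta chain, measured 2093, 12.7, 1969, 1214 and 356 CPM on day 10 and 2.2, 2.76, 0.291, 3.82 and 3.5 CPM on day 5 (log2 fold change 8.80 ± 1.30, adjusted p = 0.00952). Fgg, the gamma chain, measured 5663, 209, 5376, 4525 and 1825 CPM on day 10 and 19.9, 15.9, 7.44, 16.7 and 22 CPM on day 5 (log2 fold change 7.74 ± 0.87, adjusted p = 0.00453). The order of the day 10 libraries was the same for all 3 chains except that Fga was highest in replicate 3 and the others in replicate 1. Albumin (Alb), the defining hepatocyte protein, was lower on day 10 (3.55 to 10.6 CPM against 7.15 to 30.2 CPM, log2 fold change -1.80, adjusted p = 0.0374), and its call was lost without day 10 replicates 1 and 3 (adjusted p = 0.117), by limma-voom (0.142) and with one of day 10 replicates 1, 3 and 4 and day 5 replicates 1, 2, 4 and 5 left out (highest adjusted p 0.0866). Of the 6 tested liver genes 2 rose, Apob and Serpina1a, which encode a lipoprotein and a protease inhibitor, and 1 fell, against 1 and 0 without replicates 1 and 3. The mean level of the list changed by 0.02 log2 units in the Y-low and -0.09 in the Y-high libraries. The list summed to 486 to 653 CPM on day 10 and 352 to 1199 CPM on day 5.

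The 250 bases before the RefSeq start (build GRCm38.p6) of the fibrinogen chains and of Fosl2, an AP-1 subunit, are shown because these genes had the smallest p-values of their lists. Capitals mark matches, on either strand, to the letters of a STAT site (TTCNNNGAA), an AP-1 site (TGANTCA), a CRE (TGACGTCA), a CARE (TGATGNAA), an antioxidant element (TGACNNNGC), an E-box (CACGTG), a kappa B site or a CArG box. The AP-1, CRE, CARE and antioxidant letters all begin with TGA, so a stretch can match more than one. The windows lie at chr3:83025903-83026152 on the plus strand, chr3:83049864-83050113 on the minus strand, chr3:83007474-83007723 on the plus strand and chr5:32136222-32136471 on the plus strand.
Fga: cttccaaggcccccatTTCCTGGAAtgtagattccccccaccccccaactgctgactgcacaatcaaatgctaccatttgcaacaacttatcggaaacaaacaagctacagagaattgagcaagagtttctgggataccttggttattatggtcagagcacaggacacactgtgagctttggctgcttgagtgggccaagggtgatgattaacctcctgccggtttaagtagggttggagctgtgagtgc
Fgb: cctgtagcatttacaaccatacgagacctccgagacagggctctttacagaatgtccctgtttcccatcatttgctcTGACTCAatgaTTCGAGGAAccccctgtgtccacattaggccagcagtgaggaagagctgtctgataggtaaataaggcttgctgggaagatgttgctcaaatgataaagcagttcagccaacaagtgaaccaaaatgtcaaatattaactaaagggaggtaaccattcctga
Fgg: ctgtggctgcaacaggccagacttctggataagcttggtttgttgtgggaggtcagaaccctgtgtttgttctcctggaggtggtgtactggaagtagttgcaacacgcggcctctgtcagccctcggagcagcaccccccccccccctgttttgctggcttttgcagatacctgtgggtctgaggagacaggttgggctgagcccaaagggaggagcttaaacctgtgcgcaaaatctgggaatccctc
Fosl2: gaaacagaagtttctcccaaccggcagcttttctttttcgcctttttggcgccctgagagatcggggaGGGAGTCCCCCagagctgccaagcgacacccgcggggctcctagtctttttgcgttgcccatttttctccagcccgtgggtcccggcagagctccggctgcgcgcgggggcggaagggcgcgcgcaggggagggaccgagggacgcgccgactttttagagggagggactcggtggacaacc
Fga held a STAT match 234 to 226 bases before the start, Fgb held a STAT match at 162 to 154 and an AP-1 match at 173 to 167, Fosl2 held overlapping kappa B matches at 182 to 172, and Fgg held none of these letters. The windows of Psat1 and Ddit4, the leading amino acid stress genes, held none of them either, and Myc had no entry in the table. The table held windows of 10768 of the 14235 genes tested. STAT letters were in 8.13% of all 27025 genes of the table and in 7.47% of the tested genes with a window. They were in 4 of 14 acute phase, 3 of 12 NF-kB and 1 of 11 interleukin-6 family genes tested with a window. A kappa B match was in 4.46% of all genes and in 5.59% of the tested genes. It was in 6 of 12 NF-kB, 4 of 17 immediate early and 0 of 14 acute phase genes. The CARE letters were in 3.91% of all genes, 2.4% of tested genes and 3 of 14 tested integrated stress response genes. AP-1 letters were in 5.77% of tested genes, 2 of 14 acute phase genes and 0 of 17 immediate early genes. These matches are descriptions of letters and not of binding.

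Other acute phase genes rose as well, some of them mainly in replicates 1 and 3. Lcn2, an iron-carrier-binding protein released by damaged tubules, measured 8612, 13.6, 9421, 108 and 138 CPM on day 10 and 4.91, 4.92, 6.63, 5.34 and 5.9 CPM on day 5. The lowest day 10 library was still above all 5 day 5 libraries, but replicates 1 and 3 were far above the other 3. Its log2 fold change was 9.36 ± 1.86 (adjusted p = 0.0186) and fell to 3.97 (adjusted p = 0.015) without replicates 1 and 3. With the Y-linked level as a covariate it was 6.69 (adjusted p = 0.0503). C3, the central complement protein, measured 6249, 380.3, 6807, 1602 and 889.9 CPM on day 10 and 54.5, 261, 56.6, 134 and 55.2 CPM on day 5, with no overlap (log2 fold change 4.82 ± 0.91, adjusted p = 0.0152). Lrg1, a secreted leucine-rich glycoprotein, ran 12 to 1548 CPM on day 10 and 4.07 to 5.75 CPM on day 5 (log2 fold change 6.93 ± 1.24, adjusted p = 0.0126, 4.06 without replicates 1 and 3). Apcs, the serum amyloid P component, stayed rare at 1.12 to 5.06 CPM against 0 to 0.415 CPM but did not rest on replicates 1 and 3 (3.93 with them, 4.06 without them). A2m, a protease inhibitor, and Saa1, serum amyloid A, had log2 fold changes of 4.93 and 7.42, of which Saa1 was named after its values were seen. Calls lost with a single library left out were those of Lcn2, C3, A2m and Saa1 (highest adjusted p 0.0599, from leaving out one of day 5 replicates 1, 3 and 4). The limma-voom fit with quality weights also ended the call of Saa1 (log2 fold change 4.60, adjusted p = 0.081).

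Genes of interleukin-6 family signalling moved with the acute phase genes in part of their number. Of 16 listed, 12 were tested, 5 rose and 1 fell (median 0.79), and without replicates 1 and 3, 4 rose and 1 fell. Stat3, the transcription factor, measured 569, 166, 579, 371 and 332 CPM on day 10 and 107, 139, 84.9, 93.2 and 128 CPM on day 5, with no overlap. Its log2 fold change was 1.86 ± 0.31 (adjusted p = 0.0115). Socs3, the feedback inhibitor that STAT3 induces, measured 247, 9.4, 264, 48.5 and 28.4 CPM on day 10 and 2.03, 6.99, 3.08, 2.23 and 6.78 CPM on day 5, also with no overlap (log2 fold change 4.81 ± 0.94, adjusted p = 0.0175, 2.76 without replicates 1 and 3). Pim1, a kinase downstream of STAT3, ran 11.7 to 18.3 CPM against 3.29 to 8.02 CPM, evenly across the day 10 libraries (log2 fold change 1.56, adjusted p = 0.00995). The receptor chain Il11ra1 fell (log2 fold change -0.52, adjusted p = 0.0199). Il6 itself was below the count filter, at 1.9, 0, 1.63, 0 and 0.0447 CPM on day 10, where only replicates 1 and 3 were above 1 CPM, and at 0 in all 5 day 5 libraries. Leaving out a single library ended the calls of Socs3 and Il11ra1 (highest adjusted p 0.0576, from leaving out one of day 5 replicates 1, 3 and 4).

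A minority of the tubular injury markers rose, and the list was highest in day 10 replicates 1 and 3. Of 22 listed genes, 21 were tested, 9 rose and 0 fell (median 1.15), and without replicates 1 and 3, only 4 rose (median 0.27). Spp1, the secreted phosphoprotein osteopontin, took 10.3% and 9.50% of all counts in replicates 1 and 3, 0.278% to 1.30% in the other 3 day 10 libraries and 0.0686% to 0.216% on day 5. In CPM it measured 123200, 2673, 114800, 11930 and 13070 on day 10 and 1019, 2031, 735, 906 and 1987 on day 5, with no overlap (log2 fold change 5.31 ± 1.05, adjusted p = 0.0182, 2.79 without replicates 1 and 3). Tnfrsf12a, the TWEAK receptor, measured 483, 18.4, 569, 72.7 and 63.5 CPM on day 10 and 14.5, 14.1, 20.3, 18.6 and 14.1 CPM on day 5, and replicate 2 lay within the day 5 range (log2 fold change 3.88 ± 0.85, adjusted p = 0.0234). Krt20, an epithelial keratin named after its values were seen, measured 1588, 6.05, 1582, 5.23 and 4.6 CPM on day 10 and 3.18, 5.2, 4.59, 4.64 and 2.49 CPM on day 5. Its call (adjusted p = 0.0354) rested on replicates 1 and 3, and without them the log2 fold change was 0.40 (adjusted p = 0.356). Cdkn1a, the p21 cell cycle inhibitor and a p53 target, measured 385, 26.5, 415, 93.4 and 131 CPM on day 10 and 15.5, 14.6, 8.54, 16.3 and 19.1 CPM on day 5, with no overlap (log2 fold change 3.82 ± 0.67, adjusted p = 0.012). Of 15 tested p53 targets, 3 rose and 0 fell, and without replicates 1 and 3, 1 rose. Among these genes a single left-out library ended the calls of Spp1, Tnfrsf12a and Krt20 (highest adjusted p 0.0906, from leaving out one of day 10 replicates 1 and 3 and day 5 replicates 1, 2, 3, 4 and 5). With the Y-linked covariate Tnfrsf12a reached an adjusted p of 0.0554 and Krt20 0.267, and limma-voom gave 0.426 for Krt20.

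Immediate early genes, the transcription factors and feedback regulators that cells switch on within minutes of a stimulus, rose in most of the members tested. Of 23 listed genes, 21 were tested and 17 rose, 21 had a positive log2 fold change, and the median was 2.44. Without replicates 1 and 3, 12 rose and the median was 1.43. Fosl2 measured 87.1, 26, 87.5, 67.3 and 67.2 CPM on day 10 and 12.5, 18.6, 13.5, 12.2 and 21.9 CPM on day 5. The groups did not overlap, and replicate 2 was again the lowest (log2 fold change 2.08 ± 0.31, adjusted p = 0.00973, 1.76 without replicates 1 and 3). Myc, the growth regulator, measured 80.3, 26, 92.1, 18.9 and 17.1 CPM on day 10 and 5.89, 7.03, 3.49, 4.99 and 4.84 CPM on day 5 (log2 fold change 3.15 ± 0.52, adjusted p = 0.0115). Dusp1, a phosphatase that shuts off MAP kinases, ran 42.2 to 123 CPM against 27.2 to 41.8 CPM (log2 fold change 1.51, adjusted p = 0.0115). Nr4a1, an orphan nuclear receptor, ran 13.1 to 31.7 CPM against 1.99 to 8.39 CPM and was highest in replicate 2 (log2 fold change 1.97, adjusted p = 0.0163). None of these 4 calls was lost with a single library left out. Fosl1, another AP-1 subunit, was named after its values were seen, because it measured 43.6, 0.672, 55.9, 0.55 and 0.625 CPM on day 10 and 0.176 to 0.828 CPM on day 5. Its call (log2 fold change 5.17, adjusted p = 0.045) was absent without replicates 1 and 3 (0.15, adjusted p = 0.867), and the highest adjusted p with a single library left out was 0.108. Fosl1 also missed the threshold with the Y-linked covariate (adjusted p = 0.118), with limma-voom (0.352) and with no filter on low counts (0.0507).

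NF-kB is the factor that Toll-like and cytokine receptors release into the nucleus, and its targets include its own inhibitors. Of 19 listed genes, 18 were tested, 13 rose and 0 fell (median 1.5), and without replicates 1 and 3, 6 rose (median 0.66). Bcl3, a nuclear IkB protein, measured 64.1, 13.6, 87.1, 51.3 and 20 CPM on day 10 and 8.94, 7.82, 7.27, 7.87 and 9.78 CPM on day 5, with no overlap (log2 fold change 2.50 ± 0.45, adjusted p = 0.0134). Nfkbiz, another nuclear IkB protein, and Icam1, a leukocyte adhesion receptor, had log2 fold changes of 3.13 (adjusted p = 0.0161) and 2.22 (adjusted p = 0.0193). Cd14, the lipopolysaccharide co-receptor, measured 870.1, 8.17, 964, 66.4 and 46.3 CPM on day 10 and 5.59, 10.8, 4.18, 4.81 and 13.7 CPM on day 5. Replicate 2 lay among the day 5 libraries, so the groups overlapped (log2 fold change 5.64 ± 1.25, adjusted p = 0.024, 2.36 without replicates 1 and 3). One left-out library was enough to end the calls of Nfkbiz, Icam1 and Cd14 (highest adjusted p 0.0702, from leaving out one of day 10 replicate 1 and day 5 replicates 1, 3 and 4). In the NF-kB list the within-sex change of the mean level was 1.76 log2 units in the Y-low libraries and 0.70 in the Y-high libraries.

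Cytokine and chemokine genes did not share a direction. Of 25 listed, 17 were tested, 3 rose and 2 fell, and the median was 0.44 with replicates 1 and 3 and -0.32 without them. Cxcl1, a neutrophil attractant, measured 193, 1.29, 200.5, 16.9 and 7.1 CPM on day 10 and 0.339, 0.46, 0.407, 0.293 and 0.369 CPM on day 5, with no overlap (log2 fold change 7.77 ± 1.45, adjusted p = 0.0148, 4.47 without replicates 1 and 3). Il15, a lymphocyte growth factor, was lower in all 5 day 10 libraries, at 4.05, 8.4, 7.17, 9.08 and 9.74 CPM against 17.1, 18.8, 15.1, 19.8 and 18.5 CPM (log2 fold change -1.22 ± 0.21, adjusted p = 0.0122). The interferon-induced chemokine Cxcl10 measured 50.8, 2.07, 45.5, 2.81 and 4.33 CPM on day 10 and 4.19, 3.17, 4.24, 3.4 and 4.7 CPM on day 5. Only replicates 1 and 3 were above the day 5 range, its adjusted p was 0.0892 by edgeR and 0.0131 by DESeq2, and without those replicates its log2 fold change was -0.36 (adjusted p = 0.429). The call of Cxcl10 was gained without day 10 replicate 2 (adjusted p = 0.0337), and that of Cxcl1 was lost with one of day 5 replicates 1 and 4 left out (highest adjusted p 0.0508). None of the 9 leukocyte, 13 macrophage and dendritic cell or 2 tested neutrophil markers passed the test, and the leukocyte list summed to 43.8 to 114 CPM on day 10 and 60.7 to 142 CPM on day 5. The neutrophil list summed to 0.497 to 3.3 CPM and 1.61 to 5.52 CPM, and S100a9, which defines neutrophils, was at 0 in day 10 replicates 1 and 3. The macrophage and dendritic cell list summed to 526 to 1033 CPM and 231 to 1063 CPM. Cd68, a lysosomal protein of macrophages and other cells, measured 37.4, 9.07, 39.8, 3.25 and 3.48 CPM on day 10 and 2.79 to 8.37 CPM on day 5 (adjusted p = 0.102 by edgeR and 0.0267 by DESeq2). In bulk tissue RNA, fewer cells of a type and less RNA per cell cannot be told apart.

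**Figure D2:**
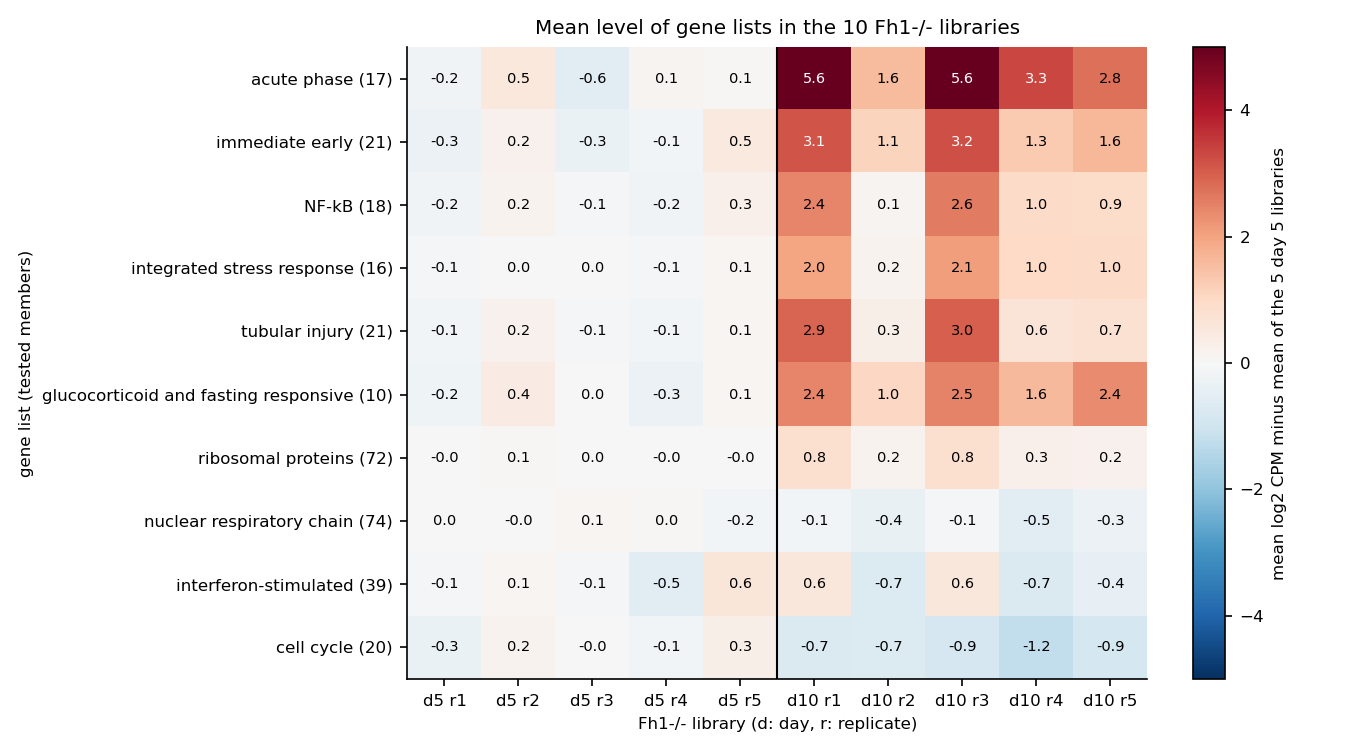
Mean log2 CPM of the tested members of 10 gene lists in each of the 10 Fh1-/- libraries, relative to the mean of the 5 day 5 libraries (colour and printed value). The acute phase list was 1.6 to 5.6 units up in the day 10 libraries, replicates 1 and 3 were highest in the first 5 lists, and the interferon-stimulated list was up in replicates 1 and 3 and down in replicates 2, 4 and 5.

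Interferon-stimulated genes, the antiviral programme induced by type I interferon, split the day 10 libraries. Of 41 listed genes, 39 were tested, 0 rose and 6 fell, with a median of 0.05. Without replicates 1 and 3, 0 rose, 10 fell and the median was -0.76. Relative to day 5, the mean level of the list was 0.58 and 0.55 log2 units higher in replicates 1 and 3 and 0.66, 0.72 and 0.43 units lower in replicates 2, 4 and 5. Oasl2, an oligoadenylate synthetase-like protein, did not follow that split and measured 7.43, 7.22, 9.66, 7.1 and 6.52 CPM on day 10 and 15.3, 16.2, 15.2, 15 and 27.2 CPM on day 5. All 5 day 10 libraries were below all 5 day 5 libraries (log2 fold change -1.23 ± 0.20, adjusted p = 0.0114). Rsad2, the antiviral enzyme viperin, and Cmpk2, a neighbouring nucleotide kinase gene, were lower as well, and Rsad2 measured 15.2, 18.4, 11.8, 7.1 and 15.6 CPM on day 10 and 44.8, 34, 19.8, 30.9 and 37.5 CPM on day 5 (log2 fold change -1.30 ± 0.27, adjusted p = 0.0208, 0.0518 without replicates 1 and 3). The mean level of the nucleic acid sensing list changed by -0.40 log2 units in the Y-low and 0.05 in the Y-high libraries. In it 1 of 12 tested genes fell, also without replicates 1 and 3, Zbp1, a sensor of Z-form nucleic acid, at 0.771 to 2.34 CPM against 2.58 to 7.47 CPM (log2 fold change -1.56, adjusted p = 0.0318). Irf5, an interferon regulatory factor outside these lists, measured 11.3, 11.5, 11.7, 9.36 and 9.56 CPM on day 10 and 23.6, 17.8, 29.1, 25.6 and 22.6 CPM on day 5, with no overlap (log2 fold change -1.15 ± 0.14, adjusted p = 0.0062). Ifi202b, an interferon-inducible p200 gene, measured 1.21 to 2.48 CPM and 1.7 to 3.97 CPM (log2 fold change -0.55, adjusted p = 0.221), and Ifnb1 had no counts in any of the 10 libraries. The calls of Rsad2 and Zbp1 (highest adjusted p 0.0688, from leaving out one of day 10 replicates 1, 4 and 5 and day 5 replicates 1, 2, 3, 4 and 5) were not kept with every single library left out.

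The integrated stress response is the programme in which phosphorylated eIF2 slows translation while the factor ATF4 is made and switches on amino acid supply genes. Of 18 listed genes, 16 were tested, 9 rose and 0 fell (median 1.41), and without replicates 1 and 3, 7 rose (median 0.56). Atf4 measured 221, 99.5, 226, 153 and 129 CPM on day 10 and 67.7, 90.4, 89.8, 84.2 and 82.1 CPM on day 5, with no overlap (log2 fold change 1.00 ± 0.22, adjusted p = 0.0234). Ddit4, an mTORC1 inhibitor, measured 97.8, 21.1, 105, 62.8 and 82 CPM on day 10 and 20.8, 20.6, 16.6, 19.9 and 21.4 CPM on day 5, and replicate 2 lay within the day 5 range (log2 fold change 1.89 ± 0.35, adjusted p = 0.014). Ppp1r15a, which guides eIF2 dephosphorylation, and Cebpb, a partner factor of ATF4, had log2 fold changes of 1.43 (adjusted p = 0.0189) and 2.38 (adjusted p = 0.0189). Chac1, a glutathione-degrading enzyme named after its values were seen, differed in pattern, at 7.98, 0.728, 7.03, 30.6 and 14.2 CPM on day 10 and 0.411 to 1.84 CPM on day 5, with replicates 4 and 5 highest (log2 fold change 3.30, adjusted p = 0.0291, 3.62 without replicates 1 and 3). Leaving out a library ended the calls of Atf4, Ppp1r15a, Cebpb and Chac1 (highest adjusted p 0.0759, from leaving out one of day 10 replicates 1 and 4 and day 5 replicates 1, 2, 3 and 4), and limma-voom gave Chac1 an adjusted p of 0.0681.

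Psat1, the aminotransferase of serine synthesis, was the serine pathway gene that rose. It measured 556, 73.4, 515, 236 and 303 CPM on day 10 and 34.7, 34.9, 33.1, 32.4 and 31.4 CPM on day 5, so the lowest day 10 library was above all 5 day 5 libraries (log2 fold change 3.33 ± 0.45, adjusted p = 0.00721, 2.61 without replicates 1 and 3). Of the 10 tested genes of serine, one-carbon, proline and asparagine synthesis it was the only one to pass as higher, and Phgdh, which makes the substrate of the Psat1 step, fell (0.771 to 2.48 CPM against 2.44 to 3.76 CPM, log2 fold change -1.03, adjusted p = 0.0455). The call of Phgdh was lost with one of day 10 replicates 1, 4 and 5 and day 5 replicates 1, 2, 3, 4 and 5 left out (highest adjusted p 0.109), with no filter on low counts (0.0577) and in a fit of all 20 libraries (0.0923). Eif4ebp3, an inhibitor of cap-dependent translation, measured 179.8, 111, 187, 471 and 269 CPM on day 10 and 28.4, 35.5, 31.8, 26.8 and 26.3 CPM on day 5. It was highest in replicate 4, and its log2 fold change of 3.03 ± 0.35 (adjusted p = 0.00453) was 3.25 without replicates 1 and 3. In the heat shock and endoplasmic reticulum list, 3 of 19 tested genes rose and 3 fell, against 1 and 2 without replicates 1 and 3, and the mean level changed by 0.47 log2 units in the Y-low and -0.10 in the Y-high libraries. Xbp1, the factor that expands the endoplasmic reticulum, measured 1516, 263, 1478, 746 and 414 CPM on day 10 and 206, 192, 185, 181 and 165 CPM on day 5, with no overlap (log2 fold change 2.25 ± 0.44, adjusted p = 0.0181, 1.35 without replicates 1 and 3), and its call was lost with one of day 5 replicates 1, 3 and 4 left out (highest adjusted p 0.0559).

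Genes of the translation machinery that passed the test rose by small amounts. Of 84 cytosolic ribosomal protein genes, 72 were tested, 20 rose and 0 fell, 65 had a positive log2 fold change (against 7264 of all 14235 genes), and the median was 0.50. Without replicates 1 and 3, 10 rose and the median was 0.23. Rps9 of the small subunit measured 258, 180.2, 270.1, 203 and 194 CPM on day 10 and 132, 148, 146, 128 and 142 CPM on day 5 (log2 fold change 0.67 ± 0.13, adjusted p = 0.0176). Ribosomal protein genes have many processed pseudogenes, so the counts of single members are uncertain. In ribosome biogenesis 2 of 15 tested genes rose, and 2 without replicates 1 and 3, among them Npm1, a nucleolar chaperone, at 87.2 to 144 CPM against 61.7 to 69.4 CPM (log2 fold change 0.73, adjusted p = 0.0148). Gas5, a non-coding host of small nucleolar RNAs that accumulates when its translation-linked decay slows, measured 96.9, 62.2, 90.5, 85.3 and 55.6 CPM on day 10 and 24.1, 28, 20.8, 29.8 and 32.3 CPM on day 5, with no overlap (log2 fold change 1.53 ± 0.18, adjusted p = 0.00546, 1.32 without replicates 1 and 3). Of 20 aminoacyl-tRNA synthetases, which charge tRNAs, 3 rose and 0 fell, and without replicates 1 and 3, 1 rose, Qars (log2 fold change 0.45, adjusted p = 0.0193, 0.0342 without them). The calls of Rps9, Npm1 and Qars (highest adjusted p 0.0595, from leaving out one of day 5 replicates 1, 3 and 4) were lost with a library left out.

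Genes that respond to glucocorticoids and fasting were higher as a list in each of the 5 day 10 libraries than in any day 5 library. All 10 listed genes were tested, 7 rose and 0 fell (median 1.88), and without replicates 1 and 3, 8 rose (median 1.59). Fkbp5, a co-chaperone of the glucocorticoid receptor and a direct target of it, had with Slc9a8 the lowest adjusted p of the comparison. It measured 565, 388, 568, 605 and 532 CPM on day 10 and 142, 194, 166, 140.5 and 127 CPM on day 5, and replicate 2 was the lowest of the day 10 libraries (log2 fold change 1.79 ± 0.16, adjusted p = 0.00244, 1.72 without replicates 1 and 3). Fh1+/+ libraries measured 126, 49.6, 152, 89 and 81.9 CPM on day 10 and 86.5, 64.2, 86.3, 86.1 and 115 CPM on day 5. Pdk4, the kinase that closes pyruvate dehydrogenase, measured 923, 99.8, 817, 129.6 and 622 CPM on day 10 and 15.9, 19.8, 27.9, 13.4 and 17.4 CPM on day 5 (log2 fold change 4.78 ± 0.66, adjusted p = 0.00728). Txnip, an inhibitor of thioredoxin and glucose uptake, ran 722 to 1678 CPM against 312 to 468 CPM (log2 fold change 1.58, adjusted p = 0.00858). Angptl4, a lipoprotein lipase inhibitor, ran 82 to 500.2 CPM against 23.7 to 49 CPM (log2 fold change 3.14, adjusted p = 0.00973). None of these 4 genes overlapped between the days, and none lost its call with a single library left out. Mt2, a metallothionein, measured 1853, 53.2, 2097, 115 and 195 CPM on day 10 and 28.1 to 47.4 CPM on day 5 (log2 fold change 4.48, adjusted p = 0.0247, 1.65 without replicates 1 and 3), missed the threshold with the Y-linked covariate (0.0624) and lost its call with one of day 10 replicates 1 and 3 and day 5 replicates 1, 3, 4 and 5 left out (highest adjusted p 0.0695).

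In fatty acid oxidation and ketogenesis, 6 of 20 tested genes rose and 0 fell (median 0.43), and 4 rose without replicates 1 and 3. Eci1, a mitochondrial isomerase of unsaturated fatty acids, ran 117 to 244 CPM against 82.7 to 102 CPM (log2 fold change 1.11, adjusted p = 0.0134). Fat cell markers were also examined, and their summed levels overlapped between the days. The list summed to 50.3 to 655 CPM on day 10, highest in replicate 2, and to 32.1 to 115 CPM on day 5, 1 of 6 tested markers rose with and without replicates 1 and 3 (Plin4, a lipid droplet protein, log2 fold change 2.42, adjusted p = 0.0189), and Adipoq, which defines fat cells, measured 1.17, 41.1, 0.639, 0.11 and 2.14 CPM on day 10 and 1.44, 7.17, 0.349, 5.22 and 1.06 CPM on day 5. The part of fat cells in the changes of Pdk4, Eci1 and other genes was not tested. The call of Plin4 was lost with one of day 5 replicates 1, 3 and 4 left out (highest adjusted p 0.0563).

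Some clock and sterol genes passed the test. Of 16 clock genes 5 rose and 2 fell, and without replicates 1 and 3, 2 rose and 1 fell. Dbp, an output factor of the clock, measured 76, 69.5, 82.7, 58.5 and 42.6 CPM on day 10 and 165, 192, 164, 152 and 163 CPM on day 5, with no overlap (log2 fold change -1.34 ± 0.17, adjusted p = 0.00624). Arntl, the core activator BMAL1, ran 6.16 to 11.8 CPM against 1.84 to 4.02 CPM (log2 fold change 1.48, adjusted p = 0.0143), and Nfil3, the repressor that opposes Dbp, ran 16.6 to 58.3 CPM against 3.9 to 14.7 CPM (log2 fold change 2.18, adjusted p = 0.0182). In Fh1+/+ the log2 fold changes of Dbp and Arntl were -0.46 and 0.80, in the same direction. The hour of collection is not given in the labels, and its part was not tested. Of 14 genes of cholesterol synthesis and its control, 0 rose and 4 fell (median -0.48), and 2 fell without replicates 1 and 3. Hmgcs1, the first committed enzyme of the pathway, ran 248 to 391 CPM against 405 to 888 CPM (log2 fold change -1.14, adjusted p = 0.0278, 0.0819 without replicates 1 and 3). Calls in this group lost with a library left out were those of Nfil3 and Hmgcs1 (highest adjusted p 0.0742, from leaving out one of day 10 replicates 1 and 3 and day 5 replicates 1, 3 and 4).

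Some nuclear genes of mitochondrial energy metabolism fell, by small amounts. Of 76 respiratory chain genes, 74 were tested, 0 rose and 13 fell, 2 had a positive log2 fold change, and the median was -0.27. Without replicates 1 and 3, 27 fell and the median was -0.41. Replicates 1 and 3 lay nearest to day 5 in this list, and the change of its mean level was -0.10 log2 units in the Y-low and -0.50 in the Y-high libraries. Ndufs8, a complex I subunit, measured 125, 145, 156, 125 and 134 CPM on day 10 and 179.9, 189, 189, 193 and 182 CPM on day 5, with no overlap (log2 fold change -0.45 ± 0.09, adjusted p = 0.0203). Atp5k, a subunit of the ATP synthase, ran 50.5 to 84.3 CPM against 92.9 to 130.2 CPM (log2 fold change -0.70, adjusted p = 0.0214). Of 23 genes of the TCA cycle and fumarate metabolism, 6 fell and 1 rose, Fh1 itself (median -0.32), and without replicates 1 and 3 3 fell. Idh3a, a subunit of isocitrate dehydrogenase, measured 128, 153, 117, 119 and 144 CPM on day 10 and 197, 215, 203, 183 and 179 CPM on day 5 (log2 fold change -0.57 ± 0.11, adjusted p = 0.0164). A library left out ended the calls of Ndufs8, Atp5k and Idh3a (highest adjusted p 0.0613, from leaving out one of day 5 replicates 1, 3 and 4). Among glycolysis genes and targets of the hypoxia factor HIF, 4 of 20 rose and 0 fell, and 2 rose without replicates 1 and 3. Pfkfb3, which raises glycolytic flux, ran 33.8 to 80.1 CPM against 17.3 to 26.5 CPM (log2 fold change 1.44, adjusted p = 0.0107), and Bnip3, a mitophagy receptor, ran 108 to 202 CPM against 72.6 to 102 CPM (log2 fold change 0.87, adjusted p = 0.0169). The call of Bnip3 was lost without day 5 replicate 4 (adjusted p = 0.0552).

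NRF2 target genes, which supply glutathione and detoxify electrophiles, were highest in day 10 replicates 1 and 3. Of 24 listed genes, 23 were tested, 3 rose and 0 fell (median 0.53). Without replicates 1 and 3, 1 rose and 1 fell (median 0.12), and within the Y-high libraries the mean level of the list changed by -0.01 log2 units against 0.86 within the Y-low libraries. Srxn1, which repairs peroxiredoxins, measured 908, 112, 904, 118 and 137 CPM on day 10 and 82.8, 102, 84.1, 95.8 and 96.4 CPM on day 5. The groups did not overlap, but replicates 1 and 3 were far above the other day 10 libraries (log2 fold change 2.24 ± 0.64, adjusted p = 0.0481, 0.41 without them, adjusted p = 0.0494). Cbr3, a carbonyl reductase, measured 79.1, 1.51, 87.4, 4.46 and 26.5 CPM on day 10 and 1.52, 3.72, 2.33, 0.939 and 3.46 CPM on day 5, with overlap (log2 fold change 4.04, adjusted p = 0.0323, 0.113 without replicates 1 and 3). Nfe2l2, the gene of NRF2, ran 140.3 to 255 CPM against 110.2 to 136 CPM (log2 fold change 0.63, adjusted p = 0.0439, 0.0785 without replicates 1 and 3). All 3 calls were lost with a single library left out, those of Srxn1, Cbr3 and Nfe2l2 (highest adjusted p 0.112, from leaving out one of day 10 replicates 1 and 3 and day 5 replicates 1, 2, 3, 4 and 5). Srxn1 was also not called with the Y-linked covariate (adjusted p = 0.119), with limma-voom (0.132) or with no filter on low counts (0.0544), Cbr3 not with limma-voom (0.110), and Nfe2l2 not with no filter (0.0523).

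Some proximal tubule genes fell and 1 rose. Of 28 genes, all tested, 6 fell and 1 rose (median -0.63), 6 and 1 without replicates 1 and 3. Their summed level was 9845 to 27430 CPM on day 10 and 28680 to 37540 CPM on day 5, with no overlap. The mean log2 CPM of the list did overlap, at 7.29 to 8.88 on day 10 and 8.74 to 9.27 on day 5. In Fh1+/+ the sum was 23410 to 29580 CPM on day 10 and 28540 to 35230 CPM on day 5. The Fh1+/+ median log2 fold change of the list was -0.16. The day change differed between the genotypes for 1 of the 28 genes, as a larger fall in Fh1-/-. Slc9a8, a sodium-proton exchanger, had the lowest p of the genes that fell. It measured 81.5, 75.9, 92.2, 64.8 and 85.2 CPM on day 10 and 376, 489.8, 329, 327 and 632 CPM on day 5, and the 5 day 10 libraries lay within a narrow range (log2 fold change -2.43 ± 0.21, adjusted p = 0.00244, -2.52 without replicates 1 and 3). Fh1+/+ libraries measured 156, 418, 518, 285 and 396 CPM on day 10 and 396, 398, 338, 371 and 368 CPM on day 5. Slc5a2, the glucose transporter SGLT2, measured 90.7, 249.9, 113, 209.9 and 219 CPM on day 10 and 461, 422, 448, 509.9 and 448 CPM on day 5 (log2 fold change -1.38 ± 0.26, adjusted p = 0.0164). Miox, the enzyme that opens inositol, and Slc34a1, the main phosphate transporter, followed the split of the libraries. Miox, named after its values were seen, measured 174, 1509, 198, 552 and 696 CPM on day 10 and 2270 to 3489 CPM on day 5 (log2 fold change -2.17, adjusted p = 0.0329). Slc34a1 measured 369, 4389, 502, 2223 and 1902 CPM on day 10 and 5130 to 7475 CPM on day 5 (adjusted p = 0.0717, 0.0476 without replicates 1 and 3). Gatm, the first enzyme of creatine synthesis, measured 23.8, 286, 19.6, 60.7 and 51.6 CPM on day 10 and 684, 476, 572, 920.3 and 604 CPM on day 5, with no overlap (log2 fold change -2.88 ± 0.70, adjusted p = 0.0317). Slc13a1, the sulfate transporter of the brush border, moved the other way, at 866, 1310, 796, 2214 and 1334 CPM on day 10 and 661, 511, 455, 588 and 589 CPM on day 5 (log2 fold change 1.22 ± 0.27, adjusted p = 0.0238). Cyp27b1, which makes active vitamin D in the proximal tubule, measured 10.6, 15.3, 11.2, 19.5 and 22.2 CPM on day 10 and 1.61, 2.67, 0.698, 1.23 and 2.63 CPM on day 5 (log2 fold change 3.14 ± 0.38, adjusted p = 0.00546, 3.41 without replicates 1 and 3). Single left-out libraries ended the calls of Slc5a2, Miox, Gatm and Slc13a1 (highest adjusted p 0.0773, from leaving out one of day 10 replicates 1, 3, 4 and 5 and day 5 replicates 1, 2, 3, 4 and 5), and Slc34a1 was called by DESeq2 (adjusted p = 0.0107), by limma-voom (0.0146), with the Y-linked covariate (0.0331) and without day 10 replicate 2 (0.0163).

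Other cell types of the kidney gave few calls. Over all genes tested, 6.52% were called higher and 5.09% lower. A single call in a list this short therefore does not set a cell type apart from all genes. In the thick ascending limb and distal convoluted tubule, 1 of 12 genes fell with and without replicates 1 and 3, Pvalb of the distal convoluted tubule, at 1.84, 30.7, 2.41, 8.97 and 9.34 CPM on day 10 and 44.1 to 70 CPM on day 5 (log2 fold change -2.40, adjusted p = 0.0404). That call was lost with one of day 10 replicates 1, 3, 4 and 5 and day 5 replicates 1, 2, 3, 4 and 5 left out (highest adjusted p 0.0906). Of 15 collecting duct genes 1 rose, the water channel Aqp2, and 0 rose without replicates 1 and 3. Of 8 podocyte genes 1 rose, and 1 without replicates 1 and 3, and of 16 matrix genes 1 rose, and 2 without them. None of 11 endothelial and 10 fibroblast, pericyte and smooth muscle genes passed. For endothelial, podocyte, leukocyte and macrophage lists the mean level changed by -1.67, -1.51, -1.54 and -0.94 log2 units in the Y-low libraries and by 0.23, 0.75, 0.70 and 0.90 in the Y-high libraries. Without replicates 1 and 3 the median log2 fold changes of these 4 lists were 0.06, 0.01, 0.06 and 0.07. The mean level also changed in opposite directions for the collecting duct list (-0.58 and 0.27), the fibroblast, pericyte and smooth muscle list (-1.25 and 0.12), the urothelial list (-0.47 and 0.19) and the matrix list (-0.96 and 0.09) in the Y-low and Y-high libraries. None of 6 tested urothelial genes passed. In the list of kidney genes that differ between the sexes, 1 of 8 fell, and 0 without replicates 1 and 3, Kap, an androgen-dependent proximal tubule protein, at 7040, 17610, 6340, 12820 and 14580 CPM on day 10 and 47720, 18480, 43970, 40210 and 19740 CPM on day 5 (log2 fold change -1.54, adjusted p = 0.0355). The change of Kap was -1.14 log2 units within the Y-low and -1.55 within the Y-high libraries, its adjusted p was 0.08 without replicates 1 and 3, and its call was lost with one of day 10 replicates 1, 3 and 4 and day 5 replicates 1, 3 and 4 left out (highest adjusted p 0.0891).

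**Figure D3:**
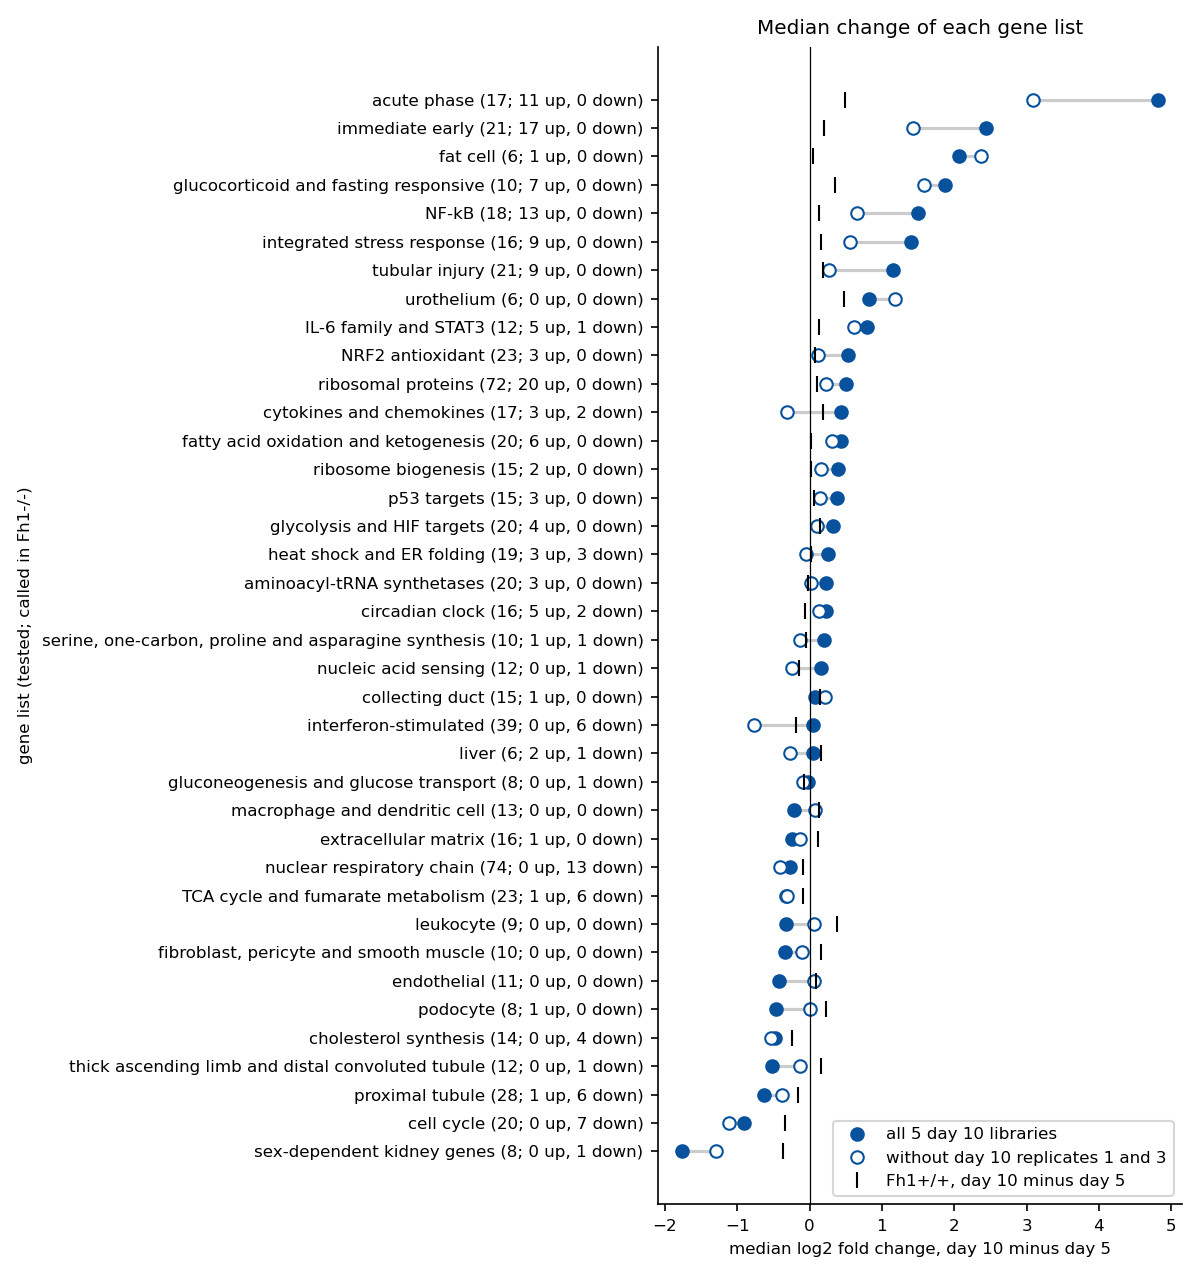
Median log2 fold change, day 10 minus day 5, of each gene list with at least 5 tested members, for all 5 Fh1-/- day 10 libraries (filled), without day 10 replicates 1 and 3 (open) and in Fh1+/+ (bar), with the counts of tested and called genes beside each list name. The acute phase median is 4.82 with and 3.09 without replicates 1 and 3, the interferon-stimulated median moves from 0.05 to -0.76, and the acute phase median in Fh1+/+ is 0.49.

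Proliferation genes had a lower mean log2 CPM as a list in each of the 5 day 10 libraries than in any day 5 library. Their summed level overlapped between the days, at 169 to 320 CPM on day 10 and 280 to 446 CPM on day 5. Of 22 cell cycle genes, 20 were tested, 0 rose and 7 fell (median -0.90), 6 without replicates 1 and 3 (median -1.12). E2f1, the factor that opens S phase, measured 1.1, 1.74, 1.14, 2.15 and 1.97 CPM on day 10 and 4.02, 3.81, 4.07, 5.46 and 4.84 CPM on day 5, with no overlap (log2 fold change -1.45 ± 0.24, adjusted p = 0.0114). Mki67, the proliferation antigen Ki-67, measured 1.53, 2.46, 0.284, 0.661 and 1.56 CPM on day 10 and 3.73, 7.08, 5.35, 4.7 and 8.39 CPM on day 5 (log2 fold change -2.15 ± 0.47, adjusted p = 0.0233). Top2a, the mitotic topoisomerase, and Cdk1, the mitotic kinase, had log2 fold changes of -1.95 (adjusted p = 0.0188) and -1.51 (adjusted p = 0.0189), and all were below 10 CPM in every library. The Fh1+/+ median of the list was -0.35. Leaving out a single library ended the calls of Mki67, Top2a and Cdk1 (highest adjusted p 0.0576, from leaving out one of day 10 replicate 1 and day 5 replicates 1, 3 and 4), and Top2a had an adjusted p of 0.0523 without replicates 1 and 3 and of 0.0703 by limma-voom.

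Some of the largest changes fell outside the lists. Ces1g, a carboxylesterase, measured 0.123, 2.13, 0.071, 0.165 and 0.357 CPM on day 10 and 12.1, 4.6, 81.2, 21.2 and 5.07 CPM on day 5 (log2 fold change -5.40 ± 1.11, adjusted p = 0.0199, 0.0568 without replicates 1 and 3, 0.136 by limma-voom). Gm6300, a predicted gene, measured 3.13, 4.48, 3.34, 8.26 and 7.59 CPM on day 10 and 112, 39.8, 126, 96.3 and 46.5 CPM on day 5, with no overlap (log2 fold change -3.96 ± 0.43, adjusted p = 0.00407). Adamts8, a secreted metalloprotease, measured 1.66, 2.41, 1.06, 0.991 and 1.16 CPM on day 10 and 10.7, 6.25, 13.3, 8.92 and 7.93 CPM on day 5 (log2 fold change -2.69 ± 0.30, adjusted p = 0.00453, -2.63 without replicates 1 and 3). Aplnr, the apelin receptor, ran 0.11 to 1.12 CPM against 2.17 to 7.93 CPM (log2 fold change -2.95, adjusted p = 0.0211, 0.0546 without replicates 1 and 3). In the other direction, Fgf18, a secreted growth factor, measured 19.2, 6.72, 16.8, 8.04 and 6.66 CPM on day 10 and 3.3, 1.93, 1.92, 1.7 and 1.66 CPM on day 5, with no overlap (log2 fold change 2.43 ± 0.37, adjusted p = 0.00973). Losses with a single library left out were limited to Ces1g and Aplnr (highest adjusted p 0.0548, from leaving out one of day 5 replicates 3 and 4).

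The Fh1+/+ libraries addressed whether the same days and doses moved the same genes without Fh1 loss. Of the 928 genes higher in Fh1-/-, 906 were tested in Fh1+/+, where their median log2 fold change was 0.10 and 722 had the same sign. Of the 725 lower genes, 724 were tested, the median was -0.13 and 611 had the same sign. Among all 14501 genes tested in Fh1+/+, called or not, 7476 changed upward from day 5 to day 10. The 2 comparisons share no library. The difference of the day changes, Fh1-/- minus Fh1+/+, was tested itself over 14934 genes, and 112 were higher (0.75%) and 49 lower (0.328%). This difference shares its Fh1-/- libraries with the comparison above. Without day 10 replicates 1 and 3, 23 were higher and 7 lower. For most genes called in Fh1-/- this difference did not pass the test, which does not show that the genotypes changed alike. The fibrinogen chains had the lowest p of the genes printed here with a larger rise in Fh1-/-, with differences of 7.06 for Fgg, 6.42 for Fga and 8.08 for Fgb (edgeR adjusted p = 0.001, 0.001 and 0.00869). Differences were also called for Fgf18 (2.86, adjusted p = 0.0105), Pdk4 (4.18, 0.0115), Eif4ebp3 (2.56, 0.0115), Psat1 (2.94, 0.0208), Myc (3.49, 0.0236), Fkbp5 (1.61, 0.0293), Stat3 (1.63, 0.0357) and Fh1 (0.71, 0.0386). Slc9a8 led the genes with a larger fall (-2.35, adjusted p = 0.00478), followed among the genes printed here by Adamts8 (-1.96, 0.0236), Il15 (-1.20, 0.0401) and Rsad2 (-1.60, 0.0407). Other genes that met the naming rule ranked between Slc9a8 and Adamts8. By list, 6 of 18 acute phase, 5 of 22 immediate early and 4 of 19 NF-kB genes were called for a larger rise. So were 3 of 22 tubular injury and 3 of 10 glucocorticoid and fasting genes. In either direction, 0 of 17 integrated stress response, 0 of 73 ribosomal protein and 0 of 74 respiratory chain genes were called. For cell cycle and NRF2 genes it was 0 of 22 and 0 of 23.

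**Figure D4:**
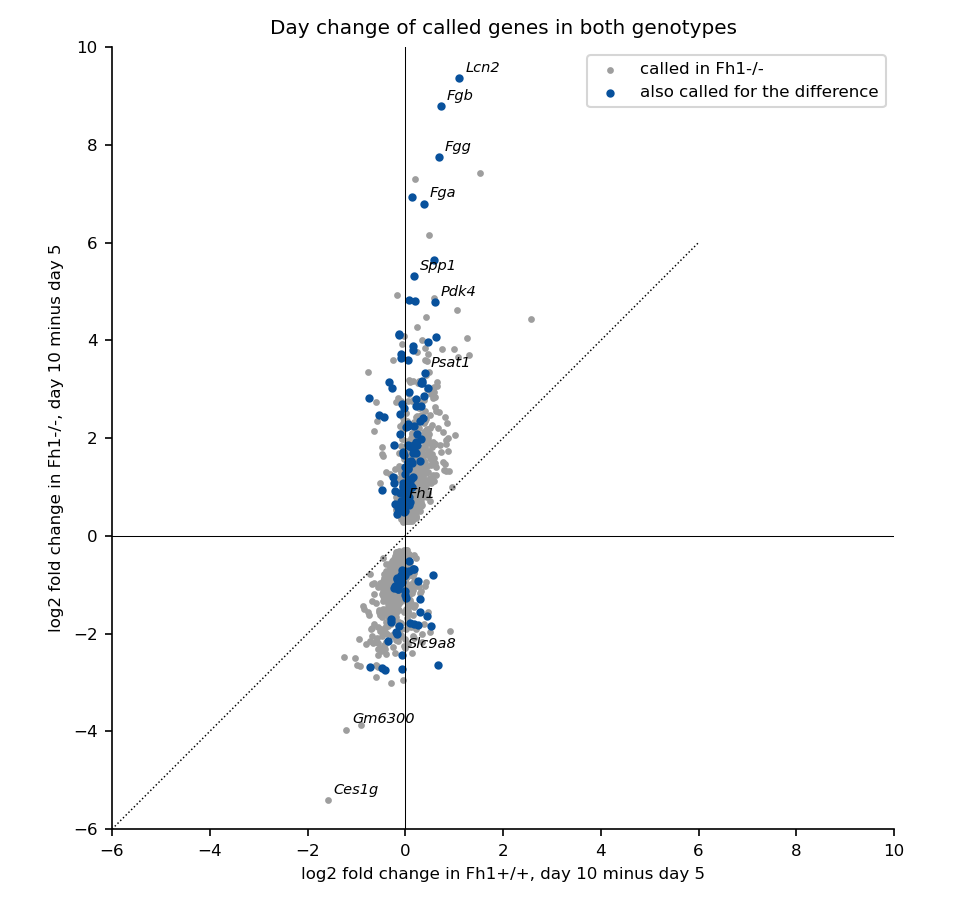
Log2 fold change, day 10 minus day 5, in Fh1-/- (vertical) against Fh1+/+ (horizontal) for the 1630 genes called in Fh1-/- and tested in both, with the 155 genes called for the difference, which shares the Fh1-/- libraries, in blue and equality dotted. Most points lie near 0 on the Fh1+/+ axis, and Fga lies at 6.80 on the Fh1-/- axis and 0.38 on the Fh1+/+ axis.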

How the data were processed

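RNA was extracted from pieces of frozen kidney and sequenced from TruSeq libraries, stranded and made by poly(A) capture per the study's methods, and bulk counts per gene symbol were analysed for 4 groups of 5 libraries. Reads were trimmed with Cutadapt, aligned with STAR 2.6.0c to GRCm38 and assigned to GENCODE genes with Rsubread by the authors, who deposited raw counts and tested them with DESeq2. Here the deposited counts were fitted for each comparison with edgeR 4.0.16 in R 4.3.3, by TMM factors, filterByExpr on low counts and the quasi-likelihood test with Benjamini-Hochberg adjustment over all genes tested. Fold changes are on the log2 scale. Their standard errors (SE) were derived from the test, as the absolute log2 fold change over the square root of its F statistic. CPM were computed from the counts and the TMM-scaled totals. The comparison used the Fh1-/- libraries of days 10 and 5, the same fit was made in Fh1+/+, and their difference was an interaction term over all 20 libraries. The scripts were tested on simulated data. Alternatives were RLE factors, DESeq2 1.42.0, limma 3.58.1 (voom with quality weights), other filters, covariates and left-out libraries.

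The members and gene lists were chosen with earlier results of these data known. The rule for named genes took the largest rises and falls among called genes with a mean of at least 1 CPM and no overlap between the days, up to 4 members of each list with the smallest p, the smallest p for the difference of the day changes and at the study's threshold, and a set of genes from the study (among them Fh1, Ifi202b, Cxcl10, Il6, Ifnb1, Cd14 and Atf4). Which of these genes are printed was settled after their values were seen. Krt20, Fosl1, Saa1, Chac1, Miox, Slc34a1, Umod, Alb, Apob, Serpina1a, Adipoq, Cd68, S100a9 and Aqp2 were named after their values were seen. Genes are given by symbol as in the file, and upstream windows came from a RefSeq table of GRCm38.p6, whose assembly is the authors' build up to its patch level. Counts of near-identical copies are uncertain, and strandedness of the counting was not given in the sources used here. Some genes that met the rule are not reported here.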

Additional observations from a re-analysis of the deposited data

Results flagged for a closer look

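Of 278 groups of 5 libraries examined for the named genes and list means, 6 had 1 library far from the others, and chance marks about 1 in 20 groups. Day 10 replicate 2 was that library in 3 of them. It was the lowest at 26.0 CPM for Fosl2, at 42.2 CPM for Dusp1 and at 388 CPM for Fkbp5, against at least 67.2, 104 and 532 CPM in the other 4 day 10 libraries. On day 5, replicate 3 was the lowest for Fgb at 0.291 CPM, replicate 5 was the highest for Oasl2 at 27.2 CPM and replicate 1 was the highest for Fgf18 at 3.30 CPM. The rule looks for 1 library apart from the other 4. It cannot flag 2 libraries that stand apart together, as day 10 replicates 1 and 3 did for Lcn2, Spp1 and Krt20.

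The day change differed between the genotypes by the interaction test for 112 genes that were higher and 49 that were lower in Fh1-/- relative to Fh1+/+. Among the genes printed here, the difference in log2 units was above 0 for Fh1 (0.71), Fga (6.42), Fgb (8.08), Fgg (7.06), Lcn2 (8.27), Lrg1 (6.81), C3 (4.75), Socs3 (4.62), Stat3 (1.63), Bcl3 (2.61), Nfkbiz (2.82), Icam1 (2.21), Cd14 (5.06), Myc (3.49), Eif4ebp3 (2.56), Psat1 (2.94), Gas5 (1.23), Spp1 (5.13), Tnfrsf12a (3.73), Fkbp5 (1.61), Pdk4 (4.18), Angptl4 (2.80), Bnip3 (0.99), Xbp1 (2.19) and Fgf18 (2.86). It was below 0 for Il11ra1 (-0.59), Il15 (-1.20), Rsad2 (-1.60), Slc9a8 (-2.35) and Adamts8 (-1.96).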

How the results depend on the processing

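The comparison of day 10 with day 5 in Fh1-/-, 928 genes higher and 725 lower by edgeR, gave 1899 and 1448 by DESeq2, 1273 and 1375 by limma-voom with quality weights, 2258 and 1770 in a fit of all 20 libraries, 578 and 483 without day 10 replicates 1 and 3, and 48 and 34 at the study's threshold. With RLE factors it gave 944 and 726, without the filter on low counts 734 and 525, at 1 CPM in at least 5 libraries 925 and 734, and with the Y-linked level as covariate 1024 and 1013. Leaving out a single library gave 167 to 1852 genes higher and 100 to 1408 lower. The lowest counts came from leaving out day 5 replicate 1 or 4 and the highest from leaving out day 10 replicate 2, and the cause was not tested.

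With the replicate number as a block (replicate block), 0 genes were higher and 0 lower, and none of the 83 calls followed was kept. Replicate numbers are shared by label only. The correlations of same-numbered libraries' deviations were -0.058, -0.115, -0.0055, 0.091 and 0.345, of which 1 of 5 was over 0.1. These correlations cannot decide whether same-numbered libraries share an origin, and the numbers were not treated as pairs.

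In Fh1+/+ DESeq2 called 0 genes higher and 1 lower, against 0 and 0 by edgeR. The difference of the day changes, 112 genes higher and 49 lower, gave 601 and 288 by DESeq2, 212 and 154 by limma-voom, 465 and 349 with the Y-linked covariate, 178 and 53 at 1 CPM in at least 5 libraries, 139 and 54 with RLE factors, 103 and 33 without the filter on low counts, 23 and 7 without day 10 replicates 1 and 3, 19 and 8 with the replicate block, and 4 and 1 at the study's threshold. A single left-out library gave 18 to 962 higher and 4 to 590 lower.

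Of the 83 called genes followed, all 83 kept their direction in every alternative run. The alternatives reuse libraries that gave these calls, so this agreement is no independent support. Among genes not called, Cxcl10 turned to -0.36 without day 10 replicates 1 and 3, and Adipoq turned to -0.16 by limma-voom and ranged from -1.57 to 2.19 with a single library left out, lowest without day 10 replicate 2. Depth limits genes below about 1 CPM, such as Il6.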
